A study of Rattus norvegicus with 24 samples.

Results

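Tspan12, Adgra2, Ctnnb1 and Erg, 4 genes around the Wnt and Norrin pathway of brain endothelium, were examined in microvessels isolated from rat cerebral cortex. Every array probe whose annotation gives 1 of these symbols alone was taken, which gave 8 probes of 20832 with a single symbol, and 4 genes of 14218. The genes were chosen on the HAL minus Sham differences of these same probes, so their HAL values are a description without a test.

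The HAL group had acute liver failure from a portocaval anastomosis, which diverts portal blood past the liver, with the hepatic artery ligated 24 h later. The HEP group had the same anastomosis, with the whole liver removed 24 h later. The Sham group had a fictitious operation in 2 steps, so its rats carried no anastomosis. All rats were decapitated 8 to 12 h after the last operation, and each group has 8 arrays. The labels give no strain, age or sex. Nothing in them ties an array to a rat of its own, so the p-values rest on a spread between arrays that may be technical, and the number of arrays limits the precision.

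Wnt and Norrin signals reach brain endothelial cells through Frizzled receptors with LRP5 or LRP6. Tspan12 is a tetraspanin co-receptor that strengthens Norrin signalling through Frizzled4. Adgra2, also called Gpr124, is an adhesion receptor that works with the membrane-anchored protein Reck to let Wnt7a and Wnt7b act on endothelium. Ctnnb1 encodes beta-catenin, which is stabilised when the pathway is active, enters the nucleus and also links cadherins to the cytoskeleton. Erg is an ETS transcription factor that keeps endothelial cells differentiated, and in human and mouse endothelium it raises beta-catenin signalling through Frizzled4 and VE-cadherin. In the brain this pathway forms and maintains the blood-brain barrier.

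The promoters available for these genes are shown because Erg binds ETS motifs and beta-catenin acts through TCF/LEF motifs, so the letters show whether such motifs occur just before the start of these members. Each is the 250 bases before the start in RefSeq on GRCr8, 5′ to 3′ on the strand of the gene, with matches to an ETS motif in capitals (a match on the opposite strand appears as its reverse complement). The Tspan12 stretch is chr4:51355031-51355280 on the minus strand, at the outer end of the annotated gene. The Erg stretch is chr11:48251567-48251816 on the minus strand, and its start lies 118906 bases inside the annotated gene span, so it belongs to an inner start.
Tspan12: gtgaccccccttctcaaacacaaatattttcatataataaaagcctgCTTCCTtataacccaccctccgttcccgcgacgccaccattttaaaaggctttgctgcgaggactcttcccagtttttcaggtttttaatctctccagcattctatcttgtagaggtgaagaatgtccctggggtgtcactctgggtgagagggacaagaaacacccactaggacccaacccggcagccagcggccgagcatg
Erg: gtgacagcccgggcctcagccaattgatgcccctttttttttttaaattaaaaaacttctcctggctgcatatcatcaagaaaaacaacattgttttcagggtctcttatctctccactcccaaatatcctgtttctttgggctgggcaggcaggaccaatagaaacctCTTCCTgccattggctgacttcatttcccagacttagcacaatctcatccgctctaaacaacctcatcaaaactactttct
The ETS letters searched were CCGGAA and AGGAAG and the TCF/LEF letters were CTTTGAA or CTTTGAT or CTTTGTA or CTTTGTT, on both strands. Tspan12 held 1 ETS match 203 bases before its start and Erg held 1 at 81 bases, while neither held a TCF/LEF match. Ctnnb1 held 0 matches to either motif and is not printed. Of 33469 rat promoters of this length 38.4% held the ETS letters and 14.9% the TCF/LEF letters, so an ETS match is common.

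The table holds only the decimals of each log2 signal, 9 of them below 10 and 8 from 10 on, so the integer part had to be read from the number of digits. Probes with 1 to 14 cells of 9 digits were taken to lie near 10, with 9 digits read as 9 plus the decimals, 8 digits as 10 plus the decimals, and shorter cells unread. The other probes were compared by their decimals alone, which gives a difference without its whole units. A signal outside 9 to 11, or one below 10 that lost a first or last 0 of its decimals, is misread, so no difference here is an exact fold. Of the 8 probes, 4 lay near 10, 2 at 10 or above and 2 below 10, with 1 near 10 for each gene.

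The tissue label was checked against cell type markers. All 12 endothelial markers with a probe had one at 10 or above (10 markers) or near 10 (2 markers), against 0 and 3 of 9 neuron markers and 0 and 0 of 7 microglia markers. At 10 or above lay 4 of 9 pericyte, 3 of 6 smooth muscle, 4 of 6 perivascular fibroblast and 3 of 7 astrocyte markers. In the same order 3, 0, 2 and 2 markers had a probe near 10, some of them also counted at 10 or above. Of 6 oligodendrocyte markers 1 lay at 10 or above and 2 near 10, and of 3 red cell markers 1 and 0. Fewer endothelial cells and less RNA per cell cannot be told apart in such samples.

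The array labelled HEP 8 goes against its label. Among genes near 10 called different between HEP and Sham without that array, it read nearer to the Sham mean than to the HEP mean in 92 of 103, or 89.3%. Among such probes at 10 or above it did so in 54 of 57, or 94.7%. The other HEP arrays, each treated in the same way, gave 0% to 37.5% near 10 and 0% to 33.3% at 10 or above. HAL array 7 was the highest of its group, with 44.9% and 60.7%. The HEP differences below are therefore given with all arrays and without the array labelled HEP 8. That array was singled out by the HEP and Sham values themselves. Leaving it out raised the genes called in HEP near 10 to 113, against 49, and the probes at 10 or above to 68, against 24. Calls made without it are therefore a description.

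**Figure D1:**
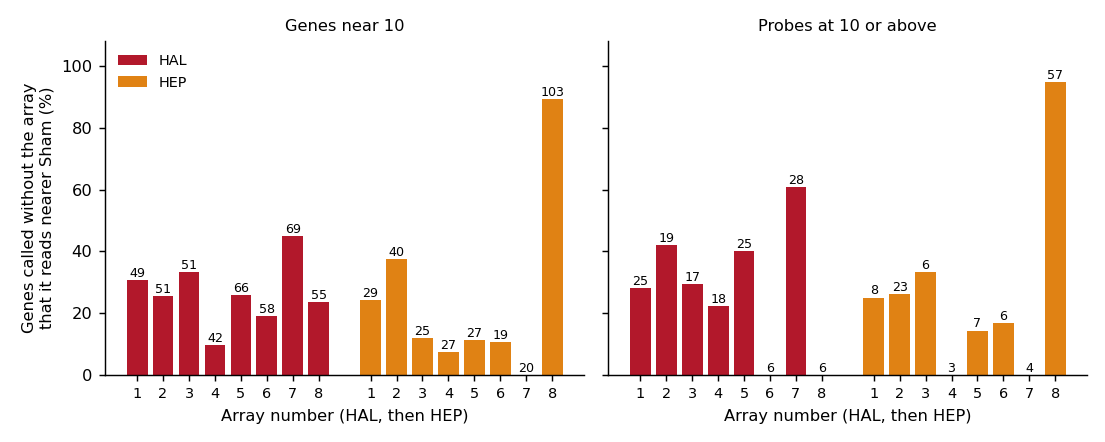
Share of genes (left, near 10; right, probes at 10 or above) on which each HAL and HEP array lay nearer to Sham than to its own group, in percent, among genes called with that array left out. The number over a bar is the genes read on it, and HEP array 8 stands at 89.3% and 94.7%.

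Tspan12, the Norrin co-receptor, read lower in HAL than in Sham on every array that could be read. Its single probe, 1372455_at, lay between 9.17 and 9.99 in HAL with a median of 9.78, between 9.60 and 10.95 in HEP with a median of 10.13, and between 10.23 and 10.73 in Sham with a median of 10.51. All 6 HAL readings were below all 7 Sham readings, and the HEP readings spread over both ranges. HAL arrays 1 and 7 and Sham array 8 have cells of 7 digits and were unread. If these cells lost a leading 0 they can lie just above 10, so the groups may not be apart on all arrays. Read in that way, HAL minus Sham was -0.65. The mean was 9.69 ± 0.33 in HAL (SD, n = 6), 10.12 ± 0.44 in HEP (n = 7) and 10.49 ± 0.21 in Sham (n = 7).

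HAL minus Sham was -0.80 on the log2 scale (SE 0.19) for Tspan12. Groups that do not overlap, with HAL lower, were found in 2.3% of the 1738 genes near 10, and nothing is read from this because the contrast chose the gene. No such share is given for HEP, for probes at 10 or above, or for counts of readings below all Sham readings. Nothing is read from those counts on any probe named here or below. Counted by digits alone, 6 of 8 HAL cells, 3 of 8 HEP cells and 0 of 8 Sham cells had 9 digits. The readings rest on these same digits, so the count is no separate evidence. A surplus of at least 5 cells of 9 digits in HAL occurred in 4.66% of the genes, and nothing is read from this either.

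In HEP the Tspan12 mean was 0.37 below Sham (difference -0.37, SE 0.18), and 5 of 7 HEP readings lay below all Sham readings. The difference did not pass the test over all genes near 10 (limma, adjusted p = 0.332), and without the array labelled HEP 8 it was -0.40 (adjusted p = 0.258). These p-values use the same Sham arrays as the contrast that chose the genes. HEP array 7 read 10.95, above every Sham array, and without it the difference was -0.51 (adjusted p = 0.118). That cell has 8 digits and could be a signal below 10 that lost a 0. The 7 Sham readings also have 8 digits and carry the same doubt. Tspan12 was 0.44 higher in HEP than in HAL (SE 0.19), or 0.40 without the array labelled HEP 8, as a description.

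Adgra2, the Wnt7 co-receptor, read lower than Sham in both liver failure groups. Probe 1373599_at lay between 9.15 and 10.35 in HAL with a median of 9.60, between 9.48 and 10.70 in HEP with a median of 9.66, and between 10.25 and 10.58 in Sham with a median of 10.48. In HAL 5 of 6 readings and in HEP 7 of 8 lay below all 5 Sham readings. The exceptions were HAL array 3 at 10.35 and the array labelled HEP 8 at 10.70, which was above every Sham array. Both are cells of 8 digits and could be signals below 10 that lost a 0, so neither reading is certain. The same holds for all 5 Sham readings, which also have 8 digits. The mean was 9.67 ± 0.39 in HAL (SD, n = 6), 9.83 ± 0.39 in HEP (n = 8) and 10.43 ± 0.14 in Sham (n = 5).

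HAL minus Sham was -0.77 for Adgra2 (SE 0.21), as a description. HEP minus Sham was -0.61 (SE 0.20), which did not pass the test with all arrays (limma, adjusted p = 0.0987). Without the array labelled HEP 8 the remaining 7 readings lay between 9.48 and 9.98, all below the 5 Sham readings. Only 5 of 8 Sham cells were read, and the share of all genes so separated is not given, so nothing is read from the separation. Adgra2 fell by 0.73 under that omission (SE 0.16, limma, adjusted p = 0.00956). The call on Adgra2 in HEP thus turns on that array and on the Sham arrays shared with the choice of the gene. The readings of either may be too high. The number of cells with 9 digits was 5 of 8 in HAL, 7 of 8 in HEP and 0 of 8 in Sham, and 2.36% of genes near 10 had a surplus of at least 5 in HEP.

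Of the 4 members near 10, 0 were called in HEP with all arrays, against 2.82% of all 1738 genes (277 at an unadjusted p under 0.05). Without the array labelled HEP 8 Adgra2 alone was called, 1 of 4 and lower, against 6.5% of all genes called either way and 2.93% called lower. A count this small does not set the members apart from that background. HEP minus HAL was 0.16 for Adgra2 (SE 0.19), or 0.035 without that array (SE 0.16).

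Some markers of perivascular fibroblasts, which lie around larger vessels, differed in the same direction as Tspan12 and Adgra2. Of the list's genes near 10, Col3a1, a collagen, fell in HAL by 0.87 (limma, adjusted p = 0.0295), and Col1a2 was at -0.83 (adjusted p = 0.0522). In HEP Col3a1 was at -0.48 (adjusted p = 0.288) and Col1a2 at -0.61 (adjusted p = 0.183). Without the array labelled HEP 8 Col1a2 fell in HEP by 0.79 (adjusted p = 0.0246), under the same omission that calls Adgra2, and Col3a1 was at -0.59 (adjusted p = 0.0969). Of the list's 6 genes 4 had a probe at 10 or above, and Pdgfra, the only one with readable decimals there, differed by -0.074 in HAL and -0.14 in HEP (-0.17 without that array). Col1a1, with a probe below 10, differed by 0.15 in HAL and 0.032 in HEP with or without it. Summed levels could not be formed from decimals, and the part of these cells in the result was not tested.

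Erg, the endothelial ETS factor, read lower in HAL than in Sham on most arrays, with overlap. Probe 1387789_at lay between 9.24 and 10.42 in HAL with a median of 9.92, between 9.79 and 10.84 in HEP with a median of 10.44, and between 9.96 and 10.66 in Sham with a median of 10.25. In HAL 4 of 7 readings lay below all 5 Sham readings, while HAL arrays 1, 6 and 7 lay within them, array 6 only just. The mean was 9.89 ± 0.42 in HAL (SD, n = 7), 10.42 ± 0.35 in HEP (n = 6) and 10.33 ± 0.27 in Sham (n = 5).

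HAL minus Sham was -0.43 for Erg (SE 0.21), and HEP minus Sham was 0.094 (SE 0.22, limma, adjusted p = 0.900). Without the array labelled HEP 8 the HEP difference was 0.094 again (adjusted p = 0.893). HEP lay 0.53 above HAL (SE 0.20) with all arrays and 0.53 without that one, as a description. The other Erg probe, 1392220_at, had no cell of 9 digits and 10 cells too short to read. Its decimals ran from 0.36 to 0.91 in HAL, 0.22 to 0.98 in HEP and 0.39 to 0.83 in Sham, so wide that no difference could be formed.

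**Figure D2:**
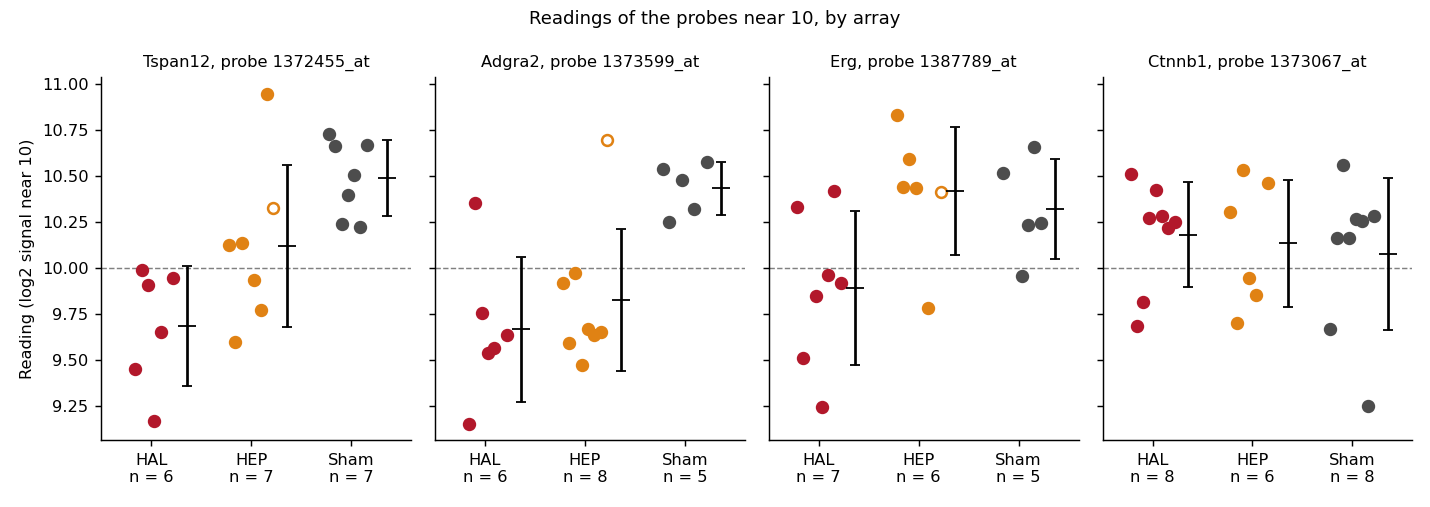
Readings of the 4 probes near 10 (y axis, log2 signal; the dashed line is 10) by group, with each point 1 array, hollow for HEP array 8, and bars the mean ± SD. The 6 HAL arrays read for Tspan12 and 5 of 6 read for Adgra2 sit below all Sham arrays read, and Ctnnb1 probe 1373067_at overlaps throughout.

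Ctnnb1, the beta-catenin gene, had 4 probes that did not move together. Probe 1373470_at, at 10 or above on every array, had decimals between 0.11 and 0.30 in HAL with a median of 0.21, between 0.18 and 0.45 in HEP with a median of 0.20, and between 0.29 and 0.42 in Sham with a median of 0.35. In HAL all 8 readings were below the Sham median and 6 of 8 below all Sham readings. In HEP 5 of 6 were below all Sham readings, and the array labelled HEP 8, at 0.45, was above them all. The mean was 0.21 ± 0.065 in HAL (SD, n = 8), 0.25 ± 0.11 in HEP (n = 6) and 0.35 ± 0.045 in Sham (n = 8).

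For 1373470_at HAL minus Sham was -0.14 (SE 0.056) and HEP minus Sham was -0.11 (SE 0.060, limma, adjusted p = 0.404). Without the array labelled HEP 8 the HEP difference was -0.15 (SE 0.058, adjusted p = 0.130), so it did not pass in either form. At 10 or above 2.09% of 1146 probes were called in HEP with all arrays and 5.99% of 1136 without that one. The SD of this probe was the smallest of the 8 in each group, and an empty stretch of 0.65 on the circle of decimals separates its highest from its lowest value. In HEP 2 cells were too short to read.

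The other Ctnnb1 probes with a fitted difference had the opposite sign to 1373470_at, but neither sign is firm. Probe 1373067_at, near 10, averaged 10.18 ± 0.29 in HAL (SD, n = 8), 10.14 ± 0.35 in HEP (n = 6) and 10.08 ± 0.42 in Sham (n = 8), with HAL minus Sham of 0.11 (SE 0.18) and HEP minus Sham of 0.058 (SE 0.19, limma, adjusted p = 0.929). The array labelled HEP 8 was not read on it. All its HAL and HEP readings lay within the Sham range of 9.25 to 10.56. Both signs depend on Sham array 7, at 9.25, as without it the differences were -0.012 in HAL and -0.060 in HEP. The HEP difference also crossed 0 without Sham array 1 (-0.00099), HEP array 3 (-0.023) or HEP array 7 (-0.0087).

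Probe 1375284_at had 16 cells of 9 digits, 4 in HAL, 5 in HEP and 7 in Sham, and may straddle 10. Its decimals, opened so that 1 stands above 0.9, averaged 0.99 ± 0.13 in HAL (SD, n = 4), 0.94 ± 0.25 in HEP (n = 5) and 0.79 ± 0.11 in Sham (n = 7). HAL minus Sham was 0.20 (SE 0.10) and HEP minus Sham was 0.15 (SE 0.094, limma, adjusted p = 0.682), or 0.11 without the array labelled HEP 8 (adjusted p = 0.786). The opening puts HAL array 3 at 1.17, HEP array 5 at 1.23 and the array labelled HEP 8 at 1.10. Cells of 9 digits lie below 10, so if the probe straddles 10 these cells belong below the others. The differences and their signs may then not hold. Below 10 that omission raised the probes called in HEP to 0.426%. The last probe, 1369733_at, had decimals from -0.022 to 0.72 in HAL, 0.12 to 0.77 in HEP and -0.027 to 0.63 in Sham, too scattered for a difference. These probes give no single sign for beta-catenin mRNA.

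**Figure D3:**
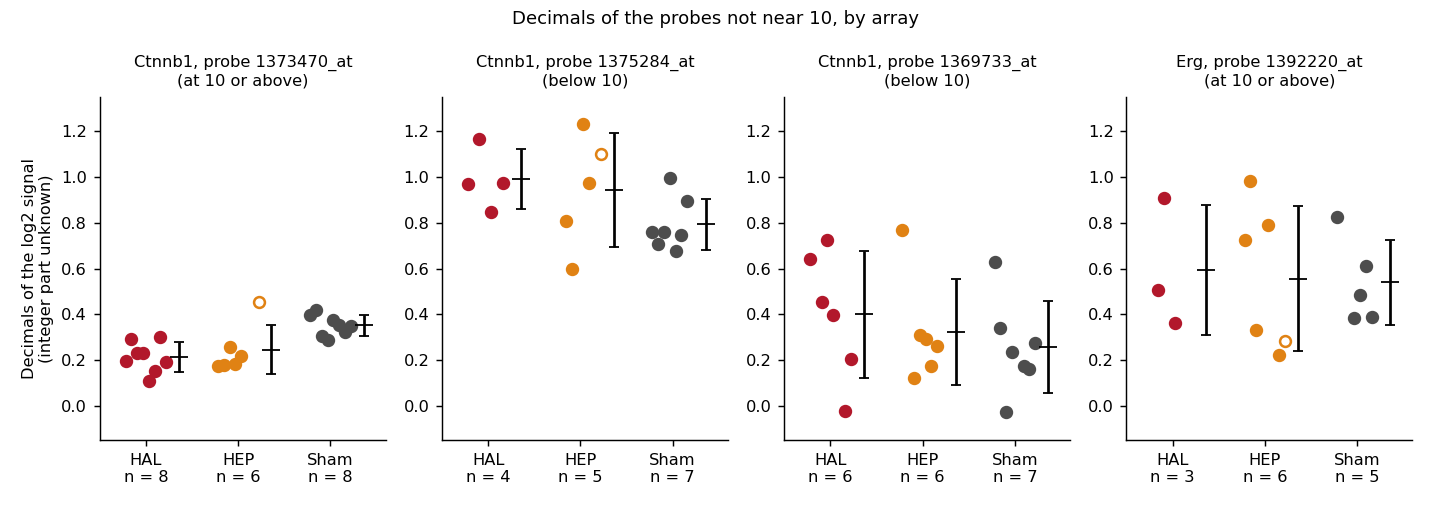
Decimals of the log2 signal for the 4 probes not near 10 (y axis, integer part unknown), by group, with each point 1 array, hollow for HEP array 8, and bars the mean ± SD. In Ctnnb1 probe 1373470_at the HAL arrays run from 0.11 to 0.30 and the Sham arrays from 0.29 to 0.42, and the other probes scatter more widely.

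**Figure D4:**
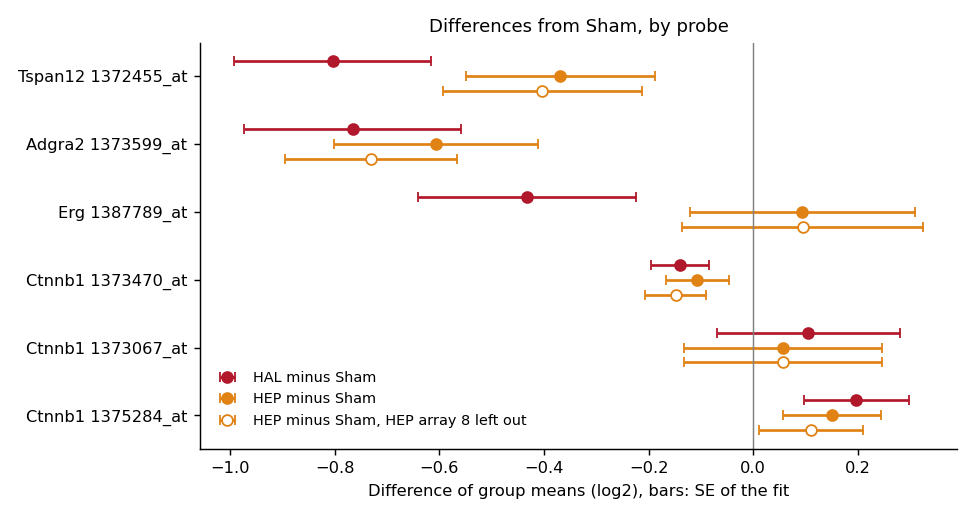
Difference of group means (x axis, log2; bars, SE of the fit) for the 6 member probes with a difference, HAL minus Sham, HEP minus Sham and HEP minus Sham without HEP array 8. Tspan12 and Adgra2 lie furthest left, at -0.80 and -0.77 in HAL, and the Ctnnb1 probes lie on both sides of 0.

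Reck, the partner of Adgra2, is the pathway receptor gene at 10 or above. Its probe 1374448_at had decimals of 0.19 ± 0.21 in HAL (SD, n = 8), 0.24 ± 0.23 in HEP (n = 6) and 0.47 ± 0.12 in Sham (n = 6). HAL array 5 at 0.65 and the array labelled HEP 8 at 0.70 stood above all Sham readings, and the other 5 HEP readings lay between 0.13 and 0.24, below every Sham reading. The difference was -0.28 in HAL (limma, adjusted p = 0.0952) and -0.22 in HEP (adjusted p = 0.282). Without the array labelled HEP 8 Reck fell by 0.31 in HEP (adjusted p = 0.0386), where 5.99% of all probes at 10 or above were called. Reck and Adgra2 share that omission, so their likeness under it is no separate evidence.

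Among the other pathway genes few were called. Their lists were drawn up with earlier results of these data known, so the shares against all genes are a description. Near 10, 0 of 39 rose and 3 fell in HAL, 7.69% against 3.8% of all genes near 10. At 10 or above 0 of 41 rose and 2 fell in HAL, on 4.35% of 46 probes against 3.05% of all. In HEP 1 rose and 0 fell near 10, 2.56% against 2.82% of all genes, and 1 rose and 1 fell at 10 or above, 4.35% of probes against 2.09%. With the array labelled HEP 8 left out, 1 rose and 2 fell of 39 near 10, where 6.5% of all genes were called, and 3 rose and 3 fell on 46 probes at 10 or above, where 5.99% of all were called. Below 10 limma called 0 of 121 probes in either contrast, also without that array, with 18 in HAL and 14 in HEP at an unadjusted p under 0.05 over all arrays, where 0.276% and 0.103% of all probes were called. The median difference near 10 in HAL was -0.024 for these genes and -0.038 for all genes.

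The list of Wnt targets and barrier genes mixes both kinds. Of its genes, Slc38a5, an amino acid transporter, fell in HAL by 0.79 (limma, adjusted p = 0.00585). In HEP Slc38a5 was at -0.53 (adjusted p = 0.0901), and without the array labelled HEP 8 it fell by 0.58 (adjusted p = 0.0492). Slco1a4, an organic anion transporter, fell in HAL by 0.35 (adjusted p = 0.0151). Mfsd2a, the lipid transporter that restrains transcytosis, had differences of -0.54 in HAL (adjusted p = 0.150) and -0.71 in HEP (adjusted p = 0.0654), and without the array labelled HEP 8 it fell in HEP by 0.85 (adjusted p = 0.00505). Slc2a1, the barrier's glucose transporter, rose in HEP by 0.32 (adjusted p = 0.0356), or by 0.37 without that array (adjusted p = 0.00183). Its call was lost without HEP array 1, 3, 4, 5, 6 or 7 or Sham array 1, 6, 7 or 8, each left out alone (differences 0.29 to 0.32, adjusted p 0.0521 to 0.0723). Slc7a1, a transporter of cationic amino acids, was at 0.35 in HEP on its probe of smallest p (adjusted p = 0.0712) and rose by 0.46 without the array labelled HEP 8 (adjusted p = 0.00959), while its other probe at 10 or above was at 0.24 in both forms. With that array left out, 2 genes of this list rose and 2 fell.

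Of 17 ligand tests and 9 receptor tests limma called 0 in either contrast with all arrays (4 and 1 in HAL, and 1 and 1 in HEP, at an unadjusted p under 0.05). The ligands of smallest p in HAL were Rspo3, a Wnt amplifier, at 0.25 (adjusted p = 0.118) and Wnt10a at 0.36 (adjusted p = 0.118), and Wnt5a, which signals mainly without beta-catenin, at -0.17 was first in HEP (adjusted p = 0.501), or at -0.22 without the array labelled HEP 8 (adjusted p = 0.202). Ndp, which encodes Norrin, the ligand of Tspan12's receptor complex, was at -0.16 in HEP (adjusted p = 0.577), or at -0.14 without that array (adjusted p = 0.614). Of 11 inhibitor tests 0 were called and 0 had an unadjusted p under 0.05 in either contrast, with Sfrp4 at 0.14 in HAL (adjusted p = 0.593) and Sost at -0.093 in HEP (adjusted p = 0.807, or 0.777 without that array). The ligand and inhibitor probes named lay below 10, where only decimals are compared.

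Around beta-catenin itself, Tbl1xr1, a nuclear co-regulator, fell in HAL by 0.66 (limma, adjusted p = 0.0159). Tnks2, a tankyrase that destabilises the Axin scaffold, fell in HAL by 0.37 (adjusted p = 0.0336) on probe 1374595_at, a call lost without HAL array 6 or 8 or Sham array 2, 4, 6 or 8, each left out alone (differences -0.38 to -0.33, adjusted p 0.0507 to 0.0729). In HEP that probe was at -0.30 (adjusted p = 0.0697), and without the array labelled HEP 8 it fell by 0.36 (adjusted p = 0.0103). The other Tnks2 probe at 10 or above was at 0.087 in HAL, the opposite sign (adjusted p = 0.722), and at -0.063 in HEP, or -0.062 without that array. In the cadherin-catenin complex 0 of 11 tested were called (2 in HAL and 3 in HEP at an unadjusted p under 0.05), and Jup, or plakoglobin, had the smallest p in HAL at -0.30 (adjusted p = 0.153) and Ptprb, which guards VE-cadherin, in HEP at 0.23 (adjusted p = 0.158, or 0.105 without the array labelled HEP 8).

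Among genes reported to need ERG in endothelium, Nrp1, a VEGF co-receptor, fell in HAL by 0.87 (limma, adjusted p = 0.0395), a call lost without HAL array 2, 3, 4 or 8 or Sham array 2, 4, 5 or 7, each left out alone (differences -0.93 to -0.76, adjusted p 0.0524 to 0.105). Emcn, an endothelial sialomucin, was at -0.34 (adjusted p = 0.0674). Of the other endothelial transcription factors limma called 0 of 33 tested in either contrast with all arrays (5 in each at an unadjusted p under 0.05). Sox18 was at -0.71 in HAL (adjusted p = 0.0651) and Mef2a at -0.32 (adjusted p = 0.0635), and Klf2, induced by shear stress, had a difference of 0.33 in HEP (adjusted p = 0.0556) and rose by 0.37 without the array labelled HEP 8 (adjusted p = 0.0167).

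Among relatives of Tspan12 and Adgra2, Adgrf5, an adhesion receptor of endothelium, fell in HEP by 0.44 (limma, adjusted p = 0.00219), with or without the array labelled HEP 8, while its probe near 10 was at -0.044 with all arrays and -0.069 without that one. Tspan2, a tetraspanin of oligodendrocytes, rose in HEP by 0.78 (adjusted p = 0.0474), or by 0.93 without that array (adjusted p = 0.00331), and its call was lost without HEP array 1, 3, 4, 5, 6 or 7 or Sham array 1, 3, 4, 5, 7 or 8, each left out alone (differences 0.68 to 0.81, adjusted p 0.0527 to 0.109). In HAL limma called 0 of the 23 tested (3 at an unadjusted p under 0.05), with Tspan6 at -0.29 (adjusted p = 0.0892).

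**Figure D5:**
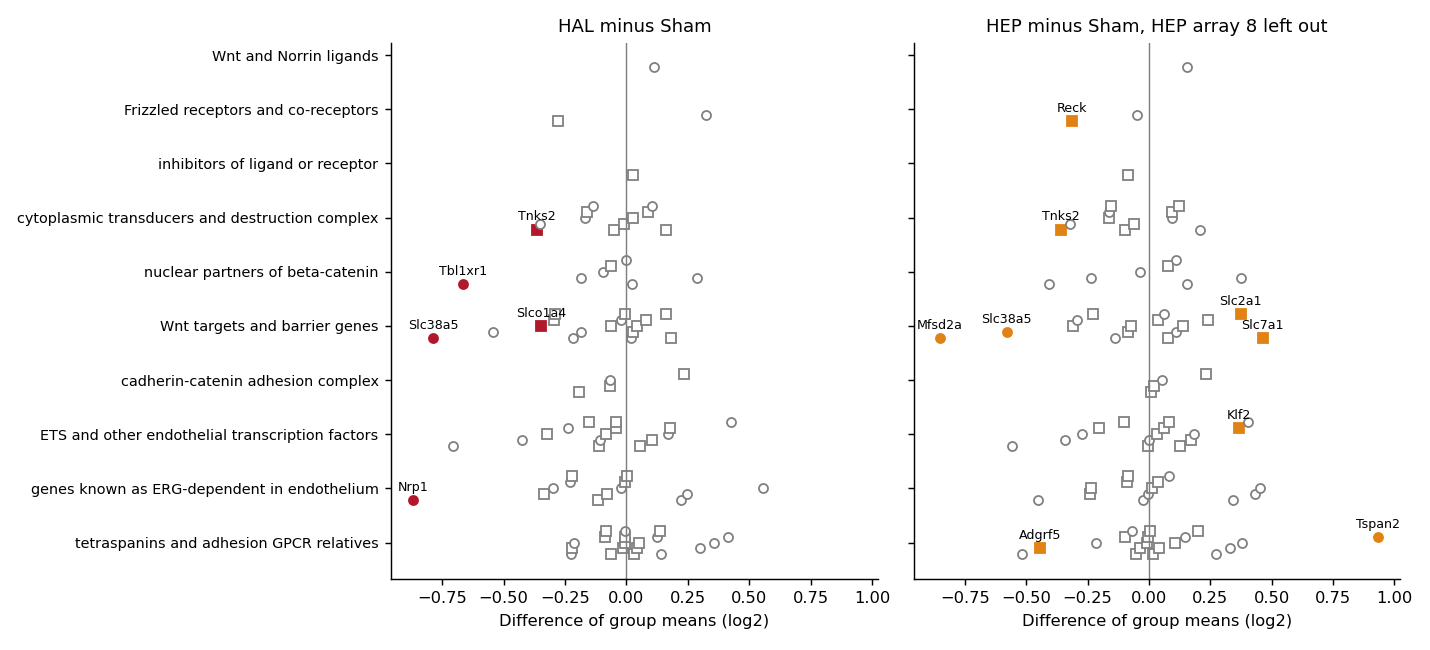
Difference of group means (x axis, log2) for pathway genes near 10 (circles) and probes at 10 or above (squares) by list, HAL minus Sham at left and HEP minus Sham without HEP array 8 at right. Filled and named points passed an adjusted p of 0.05, and in HAL all 5 of them lie left of 0.

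Endothelial markers at 10 or above mostly had negative differences in HAL, as did most probes there. Of 9 endothelial probes at 10 or above, 7 had negative differences, against 704 of 1146 over all probes there, and 1 fell (Slco1a4). Their median was -0.22 against -0.034 over all probes there, and they ran from -0.35 to 0.16. Cldn5 was at -0.0051 and Flt1 at 0.00046. In HEP the median was -0.060 against -0.0080, and -0.084 without the array labelled HEP 8. Summed levels could not be formed, and the part of cell number in the members' values was not tested.

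The genes whose readings were most like each member's over the arrays read for both, at least 16, are given as a description. For Tspan12 they were Gucy1b1 (r = 0.846, 19 arrays), Laptm4b (r = 0.832, 18 arrays) and Ripk1 (r = 0.831, 19 arrays), of 1431 genes compared. For Adgra2 they were Enpp1 (r = 0.87, 16 arrays), Atp13a5 (r = 0.851, 16 arrays) and Emp2 (r = 0.836, 19 arrays), of 1211. For Erg they were Glud1 (r = 0.846), Trip12 (r = 0.795) and Ankrd13c (r = 0.767), of 911 over 16 to 18 arrays. For Ctnnb1 probe 1373470_at they were Mtrex (r = 0.839), Top2b (r = 0.801) and Pole4 (r = 0.793), of 798 probes over 17 to 20 arrays. For 1373067_at they were Rdx, Rbms1 and Hoxb7 (r of 0.777 to 0.699, 17 to 21 arrays), and for 1375284_at Ttc34, Lbhd2 and Galnt10 (r of 0.912 to 0.832, 16 arrays). The arrays compared share their group and their overall shift, and these genes are the best of many, so the values say nothing on control.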

How the data were processed

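The labels place 24 rat arrays of cortical microvessel RNA in 3 groups of 8. The authors made the deposited values with RMA (version not stated), a method that yields normalised log2 signals, per the submitters' processing notes. The labelling kit, per the labels' protocols, was one for whole-transcript arrays, while the probes are those of a 3' array, and this mismatch was not resolved. In the deposited table the other values, whole numbers, are the decimals of log2 signals without the integer part or outer 0 digits, and whether this loss lies in the deposit is unknown.

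Of 31099 probes, 2527 lay near 10, 1933 at 10 or above and 26639 below 10 by their count of 9-digit cells, and 13.5%, 18.5% and 18% of cells in these classes were too short to read. Near 10 the probe of highest mean reading represented a gene (1738 genes). Elsewhere decimals were opened at the largest gap on the circle, with a gap of at least 0.25 and at least 3 readings a group (1146 and 15568 probes). limma 3.58.1 in R 4.3.3 was fitted on group means over all 24 arrays, eBayes without trend, with Benjamini-Hochberg adjustment within each class and a threshold of 0.05. Python 3.11.15 read the digits. The reading was tested on simulated data, where changes of a whole unit could not be seen in decimals.

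The members and lists were chosen with earlier results of these data known, and the planned choices for tests, alternatives and names were written with them in view. Named are the 4 members, called genes of each pathway list (or those of smallest p), and the 3 genes most like each member. Alternatives were another digit range, other readings of short cells, another circle opening, a gap of 0.35, centred arrays, fewer groups, array weights, a replicate block and single arrays left out.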

Additional observations from a re-analysis of the deposited data

Results flagged for a closer look

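Of 23 groups of readings of the member probes, 3 held an array set far from the rest of its group by Dixon's criterion at 95%, which chance reaches in about 1 of 20 groups. In Adgra2 probe 1373599_at the array labelled HEP 8 read 10.7, with the nearest HEP array at 9.98. That cell has 8 digits and could be a signal below 10 that lost a 0, so the flag may come from the reading. In Ctnnb1 probe 1373470_at the same array had decimals of 0.454, with the nearest at 0.259. In Ctnnb1 probe 1369733_at HEP array 1 stood at 0.770, with the nearest at 0.309, on a probe whose decimals were too scattered for a difference.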

How the results depend on the processing

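Of 48 HEP differences of the members recomputed under settings other than leaving out 1 array, 46 kept their direction and their side of the threshold. None was called in the main fit, and some settings could not move a difference. Tspan12 stayed at -0.37 and Adgra2 at -0.61 with another digit range and with fewer groups. The count therefore says little on how firm the differences are. The HAL differences of the members have no test and are not counted. With short cells read with leading zeros the differences were smaller. Adgra2 was then at -0.45 in HEP (limma, adjusted p = 0.151), against -0.61, and at -0.52 in HAL, against -0.77. Tspan12 was at -0.65 in HAL, against -0.80. HAL arrays 1 and 7 were unread for both genes in the main reading. The difference of Erg in HEP turned to -0.073 with the replicate number as a block, and Adgra2 in HEP passed the test with array weights (-0.65, adjusted p = 0.0256). The cause was not tested. Same-numbered arrays are not pairs by their labels. Their deviations near 10 correlated between HAL and Sham with r of -0.037 to 0.15 (2 of 8 pairs over 0.1) and between HEP and Sham with 1 of 8 over 0.1, and 0 and 1 of 8 arrays correlated best with their own number, so the block was not used. The block changed no other member call, and moved the count in HEP below 10 to 25, against 16.

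Counts of called genes moved by over 1.5 times as follows. Near 10 in HEP (49) they were 32 with 3 to 12 cells of 9 digits, 32 with the contrast's groups alone and 98 with array weights. At 10 or above in HAL (35) they were 71 with array weights, and in HEP (24) 15 with a gap of 0.35, 41 with centred arrays and 93 with array weights. Below 10 in HAL (43) they were 11 with a gap of 0.35, 75 with the contrast's groups alone, 67 with array weights and 16 without HAL array 2, HEP array 2 and Sham array 3, a setting chosen after seeing the data. Below 10 in HEP (16) they were 30 with short cells completed, 4 with the circle opened opposite the mean, 0 with a gap of 0.35 (limma, 838 at an unadjusted p under 0.05), 3 with the contrast's groups alone, 43 with array weights and 10 without those 3 arrays. Centring moved the share of calls that were higher in HAL to 46.3%, against 31.8%, near 10, to 61.9%, against 37.1%, at 10 or above, and to 24%, against 44.2%, below 10.

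With 1 array left out the counts ranged from 49 to 88 (HAL) and 22 to 113 (HEP) near 10, from 6 to 38 and 5 to 68 at 10 or above, and from 9 to 49 and 0 to 66 below 10. The highest HEP counts came without HEP array 8. Adgra2 in HEP ranged from -0.73 to -0.56, and Ctnnb1 probe 1373067_at from -0.012 to 0.18 in HAL and from -0.060 to 0.14 in HEP. What limits these results is the lost integer part and the 13.5% to 18.5% of unread cells.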
